A study of Mus musculus with 51 samples.

Results

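Pyrin, encoded by Mefv, and 7 further genes of the inflammasome were examined in mouse neutrophils: the sensors Nlrp3, Nlrc4 and Aim2, the adaptor Pycard, the caspases Casp1 and Casp4, and the pore protein Gsdmd. They were chosen by name, as 8 of the 50600 genes in the count tables, and all 8 were found. Their RNA was followed in 43 RNA libraries of the 51 libraries of the study, and open chromatin was followed within 50 kb of their starts. Mice labelled CX3CR1GFP Ly6GCre-tdTomato received 100 µg of zymosan, a yeast cell wall particle, in a dorsal air pouch on day 6, and Ly6G+ neutrophils were sorted 4 h later. The sources were the pouch exudate (5 RNA libraries), blood (5), bone marrow (3) and the pouch membrane (2), all from challenged mice, so no tissue had an unchallenged counterpart. ATAC-seq, which reads open chromatin by tagging it with a transposase, was done on 75000 sorted cells per library, with 2 libraries per tissue.

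The same genes were followed in ER-Hoxb8 neutrophils, which grow as progenitors while an estrogen-dependent Hoxb8 transgene is active and mature when estrogen is withdrawn. All groups were differentiated for 5 days with stem cell factor and 20 ng/mL G-CSF and then received either zymosan at 50 µg/ml or its vehicle DMSO for 2 h, with 2 libraries per group. Set 1 held wild-type cells and cells labelled CEBPB-/- and JUNB-/-, and set 2 held wild-type cells and cells labelled IRF5-/- and RELB-/-. Cells labelled RUNX1-/- and KLF6-/- were sequenced with DMSO alone and were compared with the 2 DMSO libraries of the wild type of set 2, so these comparisons share their controls with those of IRF5-/- and RELB-/-. The labels state neither how a line was made, nor whether it is 1 clone, nor whether libraries are separate cultures, so p-values measure the spread between these libraries, which may be technical.

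Inflammasomes are cytosolic complexes that turn a danger signal into protease activity. A sensor (NLRP3 for membrane damage and ion flux, NLRC4 for bacterial flagellin and secretion systems, AIM2 for DNA in the cytosol, pyrin for the action of certain bacterial toxins) recruits the adaptor ASC, the product of Pycard, which gathers caspase-1. Caspase-1 matures interleukin-1β and interleukin-18 and cuts gasdermin D, whose freed part forms pores in the membrane. Mouse Casp4 encodes the protease also called caspase-11, which binds bacterial lipopolysaccharide in the cytosol and cuts gasdermin D without caspase-1. Sensors are often present at low levels and are raised by a first, priming signal through receptors such as TLR2 and dectin-1, both of which bind zymosan. In neutrophils, active inflammasomes can release interleukin-1β without the rapid lysis seen in macrophages.

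In the mm10/GRCm38 annotation of the count tables, the sensor genes lie on chr16:3707215-3718124 (Mefv, minus strand, ENSMUSG00000022534), chr11:59541568-59566956 (Nlrp3, plus strand, ENSMUSG00000032691), chr17:74426295-74459108 (Nlrc4, minus strand, ENSMUSG00000039193) and chr1:173350879-173466040 (Aim2, plus strand, ENSMUSG00000037860). Pycard lies on chr7:127989708-127993867 (minus strand, ENSMUSG00000030793) and Gsdmd on chr15:75862339-75867404 (plus strand, ENSMUSG00000022575). The caspase genes are neighbours on the plus strand, Casp1 on chr9:5298517-5307265 (ENSMUSG00000025888) and Casp4 on chr9:5308828-5336783 (ENSMUSG00000033538).

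The 250 bases before the start of 7 of the 8 members were found in the RefSeq promoter table (build GRCm38.p6), in 9 windows. Gsdmd had no entry. The windows of the 4 members that zymosan raised in both wild types are shown here, since their chromatin is described below. For Aim2 the RefSeq start lies inside the gene span given above, so its window (chr1:173420354-173420603) is not at the start used for its site distances. Each is written along the strand of its gene, and capitals mark motif matches on either strand. The Mefv window lies on chr16:3718125-3718374 (minus strand), the windows of Nlrp3 on chr11:59541319-59541568 and chr11:59542436-59542685 (plus strand, 2 annotated starts), that of Nlrc4 on chr17:74459109-74459358 (minus strand) and that of Casp4 on chr9:5308599-5308848 (plus strand, the first of 2 starts).
Mefv: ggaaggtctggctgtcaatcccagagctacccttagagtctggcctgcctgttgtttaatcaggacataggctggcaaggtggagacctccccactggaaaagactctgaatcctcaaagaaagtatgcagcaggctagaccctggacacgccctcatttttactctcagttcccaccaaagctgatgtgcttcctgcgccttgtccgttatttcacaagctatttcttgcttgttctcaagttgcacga
Nlrp3, start 1: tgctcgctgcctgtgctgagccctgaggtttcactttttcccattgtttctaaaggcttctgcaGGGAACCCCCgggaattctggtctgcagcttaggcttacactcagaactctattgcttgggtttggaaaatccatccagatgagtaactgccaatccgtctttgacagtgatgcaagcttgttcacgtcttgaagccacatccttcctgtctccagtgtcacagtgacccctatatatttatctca
Nlrp3, start 2: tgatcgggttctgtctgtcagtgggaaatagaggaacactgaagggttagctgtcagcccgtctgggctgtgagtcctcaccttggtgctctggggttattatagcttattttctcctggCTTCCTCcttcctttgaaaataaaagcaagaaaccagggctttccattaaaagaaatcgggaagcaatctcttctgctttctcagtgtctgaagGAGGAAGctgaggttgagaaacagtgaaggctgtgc
Nlrc4: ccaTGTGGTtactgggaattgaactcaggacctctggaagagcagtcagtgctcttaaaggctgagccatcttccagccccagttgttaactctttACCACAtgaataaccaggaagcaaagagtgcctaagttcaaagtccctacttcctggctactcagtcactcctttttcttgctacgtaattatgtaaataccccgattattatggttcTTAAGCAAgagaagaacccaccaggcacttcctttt
Casp4, start 1: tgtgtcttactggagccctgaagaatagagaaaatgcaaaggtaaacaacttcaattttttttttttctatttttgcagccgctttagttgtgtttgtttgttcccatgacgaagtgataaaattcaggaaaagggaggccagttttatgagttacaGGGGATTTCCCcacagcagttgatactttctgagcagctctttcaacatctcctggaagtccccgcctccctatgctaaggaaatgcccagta

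The motifs searched on both strands were the AP-1 motif TGANTCA, the C/EBP motif written TTGCNNAA, the RUNX motif written TGTGGT, the interferon response motif written GAAANNGAA, the KLF motif written GGGNGNGG, the PU.1 motif written GAGGAAG, and the NF-kB motif. Over 32817 promoter windows of the same length they were found in 6.75%, 9.57%, 14%, 7.12%, 45.9%, 10.6% and 3.9% in that order. The first Nlrp3 window held 1 NF-kB match from -186 to -177 relative to the start, and the Casp4 window held 2 overlapping NF-kB matches from -93 to -84 and from -92 to -83. The second Nlrp3 window held PU.1 matches from -130 to -124 and from -36 to -30. The Nlrc4 window held 1 C/EBP match from -36 to -29 and RUNX matches from -247 to -242 and from -154 to -149. Of the windows not shown, that of Pycard held C/EBP, KLF and PU.1 matches and that of Aim2 a PU.1 match. None of these motifs was found in the Mefv and Casp1 windows. All 250 bases of each window shown lie in a merged ATAC-seq site. These matches are descriptions of the letters and not sites of binding.

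Levels are CPM (read counts scaled by library size and TMM factors), changes are log2 fold changes with their standard error (SE), and a gene was called at an adjusted p under 0.05 by edgeR. The tissue libraries held 9237737 to 19106125 counted read pairs, and replicates of a tissue had Spearman correlations across genes of 0.354 to 0.653. The culture libraries held 19366969 to 34263252. The Ly6G sort was checked with markers: the 10 neutrophil markers summed to between 85123 and 346809 CPM in every tissue library, while 12 monocyte and macrophage markers summed to 458 to 2073 CPM. Of these 12, 11 had counts in exudate, 10 in blood, 7 in marrow and 9 in membrane. Erythroid markers summed to 3.43 to 1373 CPM in marrow and at most 3.47 CPM elsewhere, and B cell markers to 123 to 180 CPM in marrow, 46.8 to 256 CPM in blood, up to 207 CPM in exudate and up to 151 CPM in membrane. The part of these cells in the differences between tissues was not tested. Exudate library 5 stood apart for these members, with the lowest exudate value of Mefv, Nlrp3, Casp1, Casp4 and Gsdmd and the highest of Pycard. In bulk samples such as these, fewer cells of a type and less RNA per cell cannot be told apart.

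Pyrin RNA separated marrow neutrophils from those that had left the marrow. Mefv had 0 counts in all 3 bone marrow libraries. It stood at 331, 45.4, 50.4, 30.5 and 151 CPM in the 5 blood libraries, at 540.2, 576, 276, 118 and 11.9 CPM in the 5 exudate libraries and at 549 and 166 CPM in the 2 membrane libraries. Every library outside the marrow therefore lay above every marrow library, while blood, exudate and membrane overlapped. Of the 12330 tested genes, 4.98% did not overlap between blood and marrow, 11.7% between exudate and marrow and 31.6% between membrane and marrow. With a floor of 3 counts over the marrow group, the mean level of Mefv was at least 2110-fold higher in blood, at least 5280-fold higher in exudate and at least 6210-fold higher in membrane. These are bounds on group means that cover counting error only. They do not cover the spread between libraries and do not hold for each library. It was the one member called in each comparison with marrow: adjusted p = 0.0244 for blood, where 0.0162% of 12330 tested genes were called, adjusted p = 0.011 for exudate, where 0.178% were called, and adjusted p = 0.0121 for membrane, where 0.0162% were called. Leaving out any 1 of the 3 marrow libraries raised the adjusted p above the threshold (0.146 to 0.351 for blood, 0.0739 to 0.128 for exudate, 0.0762 to 0.179 for membrane). A fit of the compared groups alone gave adjusted p = 0.245 for blood, adjusted p = 0.0584 for exudate and adjusted p = 0.024 for membrane, the one that stayed called. DESeq2 and limma voom called Mefv in all 3 comparisons. The column names carry a tag, 100 or 300, whose meaning is not given in the sources used here: all marrow libraries have 100 and both membrane libraries 300, so tag and tissue cannot be told apart for that pair, while among libraries of tag 100 Mefv was called for blood (adjusted p = 0.00696) and exudate (adjusted p = 0.00282). RLE scaling moved the median gene by -0.46 in exudate against marrow and turned no member's direction in the tissues. The 12 monocyte and macrophage markers summed to 1260 to 1308 CPM in marrow, 958 to 2073 CPM in blood, 458 to 1451 CPM in exudate and 1202 to 1233 CPM in membrane, and the 7 dendritic cell markers to 0 to 106, 2.08 to 60.6, 1.3 to 312 and 179 to 251 CPM. The part of these cells in the level of Mefv and Nlrp3 was not tested.

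Nlrp3 was ordered the same way with more spread. Its levels were 1.85, 0.0883 and 3.09 CPM in marrow, 147, 120.2, 5.78, 20.0 and 2.84 CPM in blood, 205, 648, 208, 279 and 0.0765 CPM in exudate and 244 and 174 CPM in membrane. Both membrane libraries and 4 of 5 exudate libraries lay above every blood and marrow library, 4 of 5 blood libraries lay above the marrow, and exudate library 5 lay below all 3 marrow libraries. Of all tested genes, 12.6% did not overlap between membrane and blood and 31.6% between membrane and marrow. The change from marrow was 7.31 log2 units in exudate (SE 2.09, adjusted p = 0.1), 6.95 in membrane (SE 2.14, adjusted p = 0.281) and 5.13 in blood (SE 1.87, adjusted p = 0.422), none of which passed. Without exudate library 5 the exudate change was 7.63 and was called (adjusted p = 0.0274), and with DESeq2 it was called as well (adjusted p = 0.000255). It was also called without the filter on low counts (adjusted p = 0.012). Blocking by column tag and number called it too (adjusted p = 0.0104), as did libraries of tag 100 alone (adjusted p = 0.0249). With limma voom and with RLE scaling it was not called. The membrane change was called with DESeq2 (adjusted p = 0.00768), without the filter on low counts (adjusted p = 0.0418) and with the column tag and number as block (adjusted p = 0.0116).

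The other sensors were scarce. Nlrc4 had counts in 1 exudate library (0.0989 CPM) and 2 blood libraries (0.351 and 0.655 CPM) and 0 counts in the other 12, and it was not tested. Aim2 stood at 40.9, 0, 0.0784, 4.72 and 0 CPM in exudate and 0.175, 0, 0.417, 13.1 and 5.64 CPM in blood, and had 0 counts in marrow and membrane. The depth of these libraries does not separate absence from a level under the floor of 3 counts over a group. In the unstranded tissue counts Aim2 overlaps Cadm3, which had 18 counts in all beside 783 for Aim2.

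Per kilobase of gene length, Casp4 and Casp1 were the most abundant members in every tissue. On the CPM scale Casp4 stood at 271, 263 and 225 CPM in marrow, 891, 1615, 299, 312 and 316 CPM in blood, 1321, 1129.5, 854, 2063 and 65.8 CPM in exudate and 1080.4 and 1046 CPM in membrane. All blood and membrane libraries and 4 of 5 exudate libraries lay above the 3 marrow libraries, and the change from marrow to exudate was 2.10 log2 units (SE 0.87, adjusted p = 0.171). Casp1 overlapped between all tissues except that both membrane libraries (157 and 205 CPM) lay above the marrow (52.9, 55.4 and 131 CPM). Of all tested genes, 31.6% did not overlap between membrane and marrow and 4.98% between blood and marrow. Neither caspase was called between any 2 tissues.

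Pycard, the adaptor, was near 0 in the membrane. It stood at 67.7, 55 and 48.9 CPM in marrow, 41.5, 34.2, 10.2, 3.38 and 59.6 CPM in blood, 20.1, 6.99, 49.6, 0 and 115 CPM in exudate and 0 and 4.61 CPM in membrane. The change from marrow to membrane was -4.63 log2 units (SE 2.68, adjusted p = 0.388), and exudate and blood overlapped the marrow. Gsdmd stood at 21, 28.5 and 26.8 CPM in marrow and at 72, 78.3, 69.9, 42.1 and 10.2 CPM in exudate, where 4 of 5 libraries were above the marrow. It stood at 24.8, 28.9, 44.4, 20.0 and 84.4 CPM in blood, which overlapped the marrow, and its 2 membrane libraries held 91.7 and 2.05 CPM. Pycard overlaps Gm45205 on the other strand, which had 48 counts in the tissues beside 7940 for Pycard.

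Between blood, exudate and membrane no member was called by edgeR, and neither was any of the 12330 genes (0% in each of the 3 comparisons). At an unadjusted p under 0.05 the same comparisons gave 0 members each, beside 2349 genes of all for exudate against blood, 963 for membrane against blood and 1014 for exudate against membrane. DESeq2 called Aim2 in both comparisons with membrane (log2 change -24.2 for membrane against blood, 25.2 for exudate against membrane). It called no member between exudate and blood, and limma voom called none. DESeq2 also called Aim2 against marrow, in blood (21.7) and exudate (22.8). Aim2 had 0 counts in membrane and marrow, so these sizes are not estimates of a fold. Compared per kilobase of gene length (RPKM), exudate held Casp4 at 293 ± 196 (SD, n = 5), Casp1 at 110 ± 80.6, Mefv at 92.7 ± 76.3 and Nlrp3 at 66.1, and adjacent members in this order differed by less than their spread. In marrow the order was Casp4 at 68.2, Casp1 at 53.3, Pycard at 15 and Gsdmd at 14.3, with Nlrp3 at 0.413 and Mefv, Nlrc4 and Aim2 at 0.

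**Figure D1:**
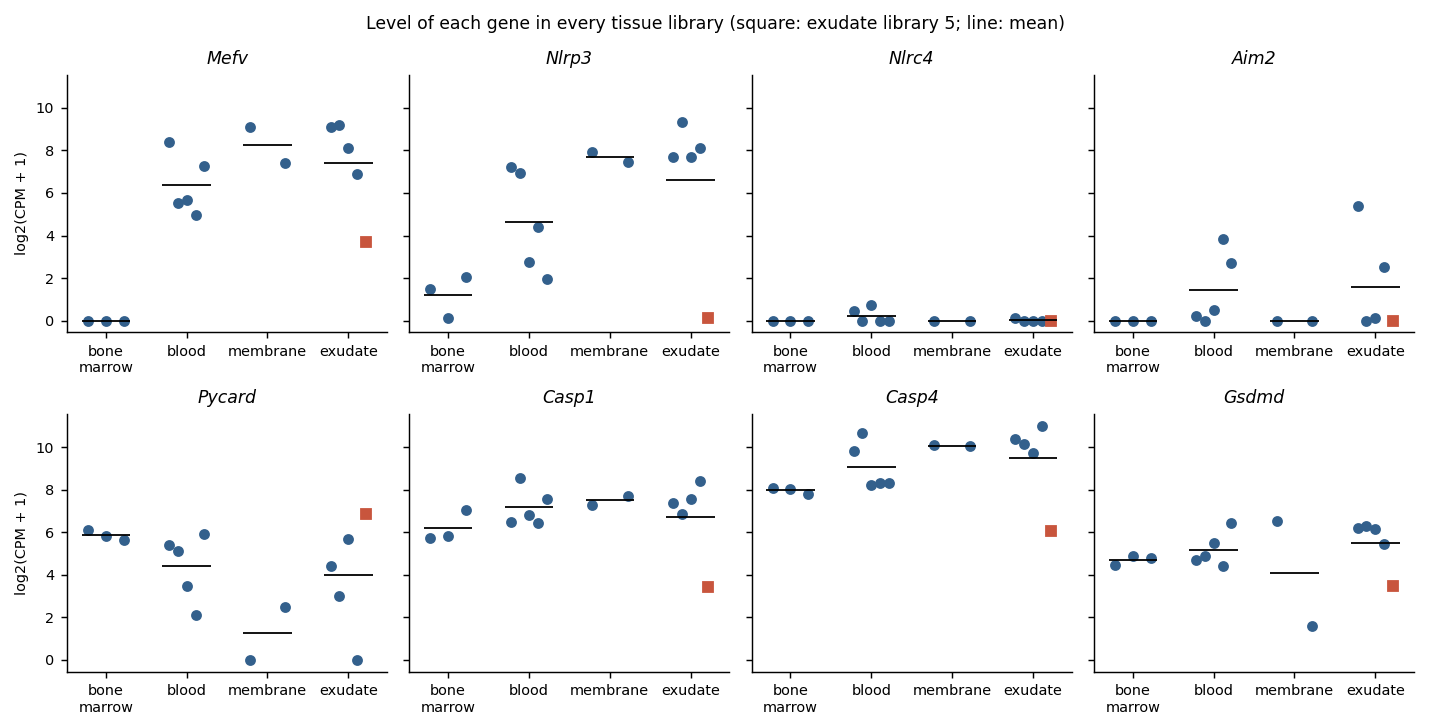
Each point is 1 RNA library of Ly6G+ neutrophils, by tissue, with log2(CPM + 1) on the vertical axis of a panel for each of the 8 members. Lines are group means and the square is exudate library 5. Mefv is at 0 in the 3 bone marrow libraries and between 11.9 and 576 CPM in all others, while Casp4 is present in every library.

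Of the lists of pathway genes, the substrates gave the one further call. Il1b, the precursor of interleukin-1β, was 7.89 log2 units higher in exudate than in marrow (SE 1.64, adjusted p = 0.0493), at 11386 ± 5804 CPM (SD, n = 5) against 48.0 ± 48.2 (n = 3). The other genes of the lists that passed the filter on low counts in the tissues, among them 7 guanylate-binding proteins and 16 priming receptors, were not called in any comparison with marrow.

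Chromatin near the members was described from the 47164 merged ATAC-seq sites and from the authors' deposited table of sites that differ between tissues, which holds 9452 distinct sites with an adjusted p and no values per library. The sizes below are the authors' -log10 of the adjusted p, and the smallest value listed was 1.3. Within 50 kb of the start, 7 of 8 members had at least 1 listed site, beside 49.4% of the 12330 tested genes. Sites more accessible in exudate than in marrow lay near 6 of 8 members (28.2% of genes), those more accessible in membrane than in marrow near 5 of 8 (25.3%), in exudate than in blood near 4 of 8 (20.6%), in membrane than in blood near 5 of 8 (17.4%) and in blood than in marrow near 1 of 8 (4.88%). One listed site of the members went the other way, a site at chr15:75886750-75887257, downstream of the start of Gsdmd, that was less accessible in membrane than in marrow (1.85). Casp1 and Casp4 are neighbours and share their sites, so their counts are not independent. Beside some of these sites the authors' table names a gene other than the member. It names Trim72 for the sites of Pycard and Zc3h3 and Naprt for those of Gsdmd. It names Olfr161 and Olfr222 for the farthest listed sites of Mefv and Nlrp3.

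The site with the smallest adjusted p lay upstream of Mefv. In the authors' deposited table the site at chr16:3723192-3723721, whose centre is at -5332 bp relative to the Mefv start, was more accessible in exudate than in blood (44.3) and marrow (56.8) and in membrane than in blood (42.7) and marrow (55.0). A site inside the gene, chr16:3714624-3715236, was in the same 4 lists, at 11.1, 22, 11.6 and 22.5. The site over the start, chr16:3717949-3718483, which covers the whole Mefv window printed above, was listed at 1.75, 7.02, 2.5 and 8.38. A pair of sites farther downstream (chr16:3706638-3707148 and chr16:3699206-3699743) was listed in 3 of these comparisons and not for exudate against blood. No Mefv site was listed for blood against marrow, where its RNA went from 0 counts to 331, 45.4, 50.4, 30.5 and 151 CPM.

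Nlrp3 had 7 listed sites, all more accessible than in marrow and none listed against blood. The site over its first start (chr11:59541220-59541804) was listed for exudate (14.9) and membrane (11.7) in the authors' deposited table. The site over its second start (chr11:59542394-59542941) was listed for exudate alone (7.60), and an intragenic site at chr11:59543245-59543765 for exudate (8.59), membrane (10.5) and also blood (5.22). A further site at chr11:59555295-59555906 was listed for blood as well (1.45), and Nlrp3 was the member with sites more accessible in blood than in marrow. The remaining 3 sites lay between 12758 and 30766 bp after the start and had values of 2.61 to 4.49.

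Casp4 resembled Mefv in its lists. The site over its start (chr9:5308574-5309079) was more accessible in exudate than in blood (9.93) and marrow (12.8) and in membrane than in blood (6.39) and marrow (8.57), per the authors' deposited table. The next site, chr9:5309181-5309752, stood at 18.8, 21.7, 11.7 and 13.5 in the same order, and chr9:5311244-5311822 at 4.06, 5.53, 3.22 and 4.50. The site over the Casp1 start (chr9:5298366-5298926) was listed for exudate against marrow (2.56). The start of Nlrc4 (chr17:74458898-74459467) was listed for membrane against blood (1.80), although its RNA was near or at 0 in these tissues. For Pycard the start was not listed and 3 upstream sites, centred at -8416 to -31514 bp, were (2.36 to 8.44). The authors' table names Trim72 beside these 3 sites. For Gsdmd the start was not listed either. Aim2 had 4 merged sites and no listed one within 50 kb of the start in the count tables. Its RefSeq start lies farther downstream, inside the gene, so this search was not centred on that start. Within 100 kb of the count-table start every member had a listed site, beside 65.9% of genes. Of the members' sites, 20 were more accessible in exudate than in marrow and 12 in membrane than in blood, and 11 were in both lists. The full lists held 4683 and 2228 sites. Their overlap over all genes was not counted, so this sharing is not shown to be particular to the members.

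**Figure D2:**
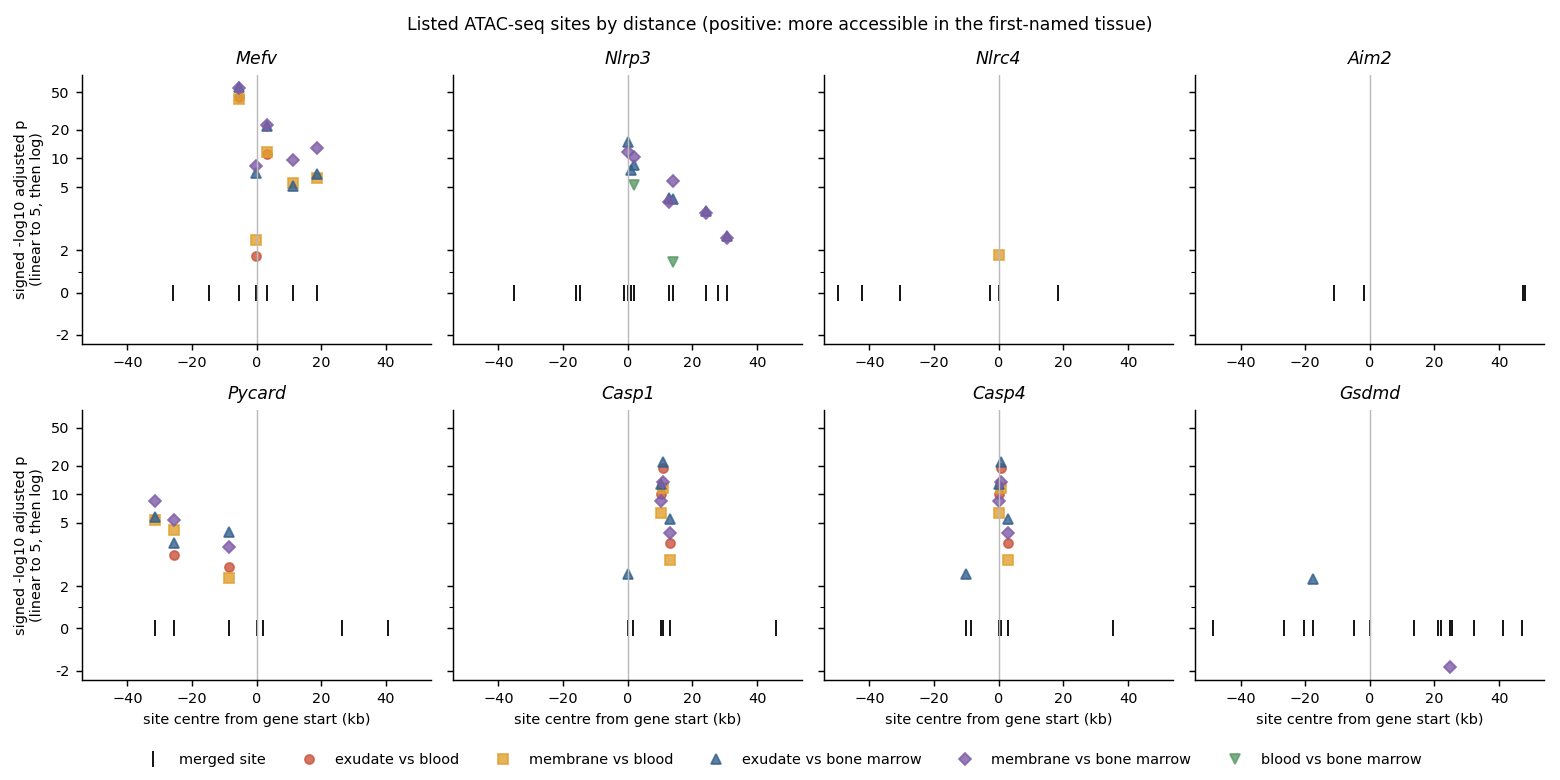
Ticks mark merged ATAC-seq sites by the distance of their centre from the start of the member in kb, and symbols mark the tissue comparison in which the authors listed a site, at the authors' -log10 adjusted p on an axis that is linear near 0 and logarithmic above (negative: less accessible in the first-named tissue). The site at -5332 bp from the Mefv start stands highest, at 42.7 to 56.8, and Aim2 has no listed site within 50 kb of the start used here.

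In cultured neutrophils, zymosan raised the sensors Mefv, Nlrp3 and Nlrc4 and the caspase gene Casp4 and lowered the adaptor Pycard and the pore gene Gsdmd within 2 h. This held in both wild types. In set 1, 4 members were called higher and 3 lower, where 75.6% of 12899 genes were called, and in set 2 again 4 higher and 3 lower, where 68.4% of 13779 genes were called, so the share of members called was near that of all genes. The members' median change was 0.89 in set 1 and 0.98 in set 2, beside -0.07 and 0.05 over all tested genes. Scaling by total counts in place of TMM moves the median gene by -0.70 and -0.87 in these comparisons, and the changes are given relative to the TMM scale.

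Nlrp3 changed most in set 1, from 281 and 294 CPM with DMSO to 3208 and 3265 CPM with zymosan (11.3-fold; log2 change 3.49, SE 0.03, adjusted p = 1.19e-60). In set 2 it went from 496 and 503 to 3143 and 3118 CPM (6.27-fold; log2 change 2.65, SE 0.02, adjusted p = 2.08e-86). The tables of the 2 sets were normalized separately, and the sets were not tested against each other. Mefv rose 9.69-fold in set 1, from 16.6 and 15.4 to 150.1 and 160.3 CPM (log2 change 3.28, SE 0.06, adjusted p = 4.29e-49), and 6.91-fold in set 2, from 20.1 and 20.7 to 144 and 139 CPM (log2 change 2.79, SE 0.04, adjusted p = 5.55e-63). Nlrc4, the sensor with the lowest level per kilobase, rose from 7.89 and 8.3 to 25.5 and 26.4 CPM in set 1 (log2 change 1.68, SE 0.09, adjusted p = 1.44e-24) and from 6.5 and 6.02 to 21.8 and 24.8 CPM in set 2 (log2 change 1.90, SE 0.10, adjusted p = 3.34e-30).

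Aim2 was the sensor without a rise in both sets. It read 76.5 and 75.7 CPM with DMSO and 82.1 and 80.3 CPM with zymosan in set 1 (log2 change 0.09, SE 0.04, adjusted p = 0.0561), a value that total-count scaling turns to -0.61 and that RLE scaling, DESeq2, voom, a fit of the compared groups and a fit without wild-type DMSO library 1 call higher. In set 2 it fell from 122 and 119.6 to 92.9 and 99.9 CPM (log2 change -0.33, SE 0.03, adjusted p = 1.61e-13).

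Pycard fell 2.57-fold in set 1, from 64.8 and 61.6 to 25.1 and 24.2 CPM (log2 change -1.36, SE 0.06, adjusted p = 8.5e-29), and 3.1-fold in set 2, from 73.6 and 74.3 to 24.6 and 23.2 CPM (log2 change -1.63, SE 0.06, adjusted p = 1.39e-40). The adaptor fell in the same libraries in which 3 of its sensors rose. Casp4 rose 4.5-fold, from 94.4 and 92.6 to 435 and 408 CPM (log2 change 2.17, SE 0.04, adjusted p = 5.77e-47), and 5.28-fold in set 2, from 100.0 and 99.5 to 530.1 and 523 CPM (log2 change 2.40, SE 0.03, adjusted p = 6.32e-75). Its neighbour Casp1 hardly moved: 49 and 51.7 against 42.7 and 43.5 CPM in set 1 (log2 change -0.22, SE 0.05, adjusted p = 0.000158), a call lost with RLE scaling (adjusted p = 0.0942) and DESeq2 (adjusted p = 0.171), and 43.9 and 44.6 against 44.7 and 47.9 CPM in set 2, where the change of 0.07 (adjusted p = 0.243) turns to -0.81 with total-count scaling. Gsdmd fell from 125 and 133 to 79.4 and 81 CPM (log2 change -0.69, SE 0.04, adjusted p = 8.8e-22) and in set 2 from 142 and 140.0 to 105 and 103 CPM (log2 change -0.44, SE 0.03, adjusted p = 1.13e-21).

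**Figure D3:**
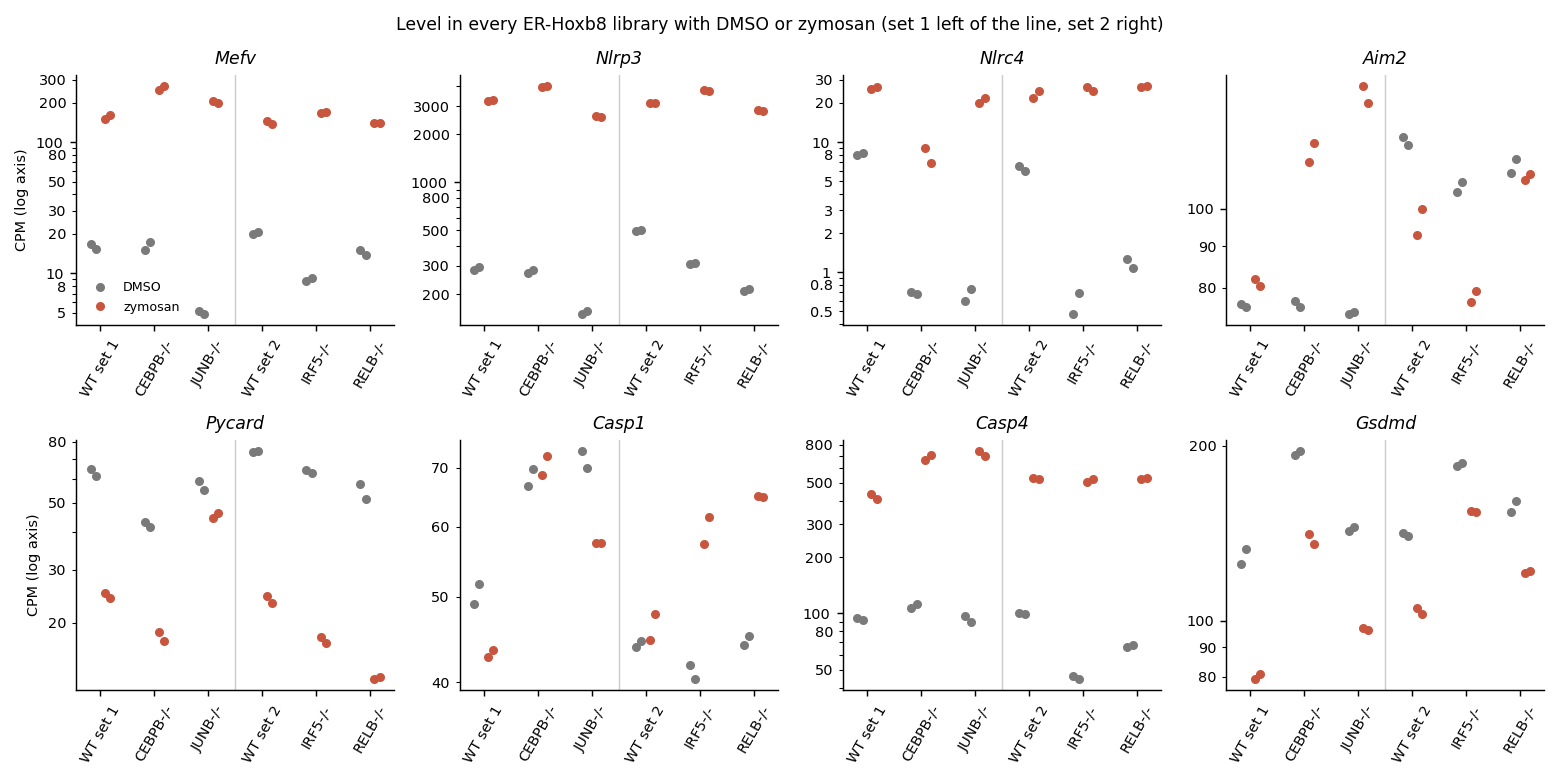
Each point is 1 library of ER-Hoxb8 neutrophils, with CPM on a log axis whose range differs between panels, by genotype label (set 1 left of the grey line, set 2 right) and by treatment with DMSO (grey) or zymosan (red). Nlrp3, Mefv, Nlrc4 and Casp4 lie higher with zymosan in every genotype and Pycard and Gsdmd lower, and Nlrc4 lies at 0.481 to 1.26 CPM with DMSO in the 4 knockouts.

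Per kilobase, Gsdmd (72.7 ± 2.92 RPKM, SD, n = 2) and Nlrp3 (70.8 ± 2.24) headed the members in wild-type set 1 with DMSO and did not differ beyond their spread, followed by Casp1 (33.6), Casp4 (25.2), Aim2 (21.7), Pycard (16.6), Mefv (4.88) and Nlrc4 (2.11). With zymosan the order was Nlrp3 (798 RPKM), Casp4 (114), Mefv (47.3), Gsdmd (45.2), Casp1 (28.8), Aim2 (23.2), Nlrc4 (6.76) and Pycard (6.49). Mefv and Gsdmd lay within their spread of each other there.

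The lists of pathway genes around the members are read beside all tested genes, of which zymosan raised 35.7% and lowered 39.9% in set 1, and raised 36.3% and lowered 32.1% in set 2. Of the other sensors, 2 of 11 tested in set 1 were higher and 6 lower (2 and 4 of 10 in set 2). Nlrp12, a sensor known to dampen NF-kB signalling, fell (changes of -3.66 and -2.78 log2 units in sets 1 and 2), while Nlrc5, an activator of MHC class I genes, rose by 1.58 and 2.68. Of the regulators, 3 of 13 were higher and 8 lower in set 1 (2 and 10 of 13 in set 2). Tnfaip3, which encodes the NF-kB inhibitor A20, rose by 4.91 and 3.05. Txnip, a thioredoxin inhibitor that can bind NLRP3, fell (changes of -3.00 and -1.73), and Pstpip1, a pyrin-binding protein, fell (changes of -1.13 and -1.24). Of the guanylate-binding proteins, which open bacterial membranes to caspase-11, 3 of 7 were higher and 1 lower in set 1 and 3 of 5 higher in set 2, with Gbp2 at 1.18 and 1.82. Dendritic cell markers summed to 71.5 to 71.9 CPM with DMSO and 217 to 218 CPM with zymosan in set 1, and to 64.7 to 65.9 and 276 CPM in set 2. Eosinophil and mast cell markers went from 1637 to 1641 CPM to 1378 to 1443 CPM in set 1, and from 3477 to 3543 to 5516 to 5532 CPM in set 2. Neutrophil markers went from 25941 to 27579 CPM to 21029 to 21375 CPM in set 1, and from 47386 to 49481 to 61149 to 62486.5 CPM in set 2. The part of these cell types in the response to zymosan was not tested.

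Of the substrates, 2 of 3 were higher in each set: Il1a by 7.32 and 7.25 log2 units, and Il1b by 3.14 and 2.79. Of the caspases, pore proteins and repair genes, 4 of 9 were higher and 4 lower in set 1 (5 and 2 of 9 in set 2). Gsdme, the gasdermin cut by caspase-3, fell (changes of -2.69 and -2.45), and Ninj1, which ruptures the membrane of dying cells, rose by 1.56 and 1.42. Of the priming receptors and their signalling genes, 8 of 16 were higher and 6 lower in set 1 (11 and 4 of 16 in set 2), with Tlr2 at 1.53 and 1.77. The counts over these lists, here and for the knockouts, are on the TMM scale and were not recomputed under other scalings.

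Over the 12 libraries of set 1 and the 12 of set 2, the genes most like Mefv by the smaller of the 2 Pearson correlations of log2(CPM + 1) were Dusp16 (r = 0.994), Plek (r = 0.990) and Taf7 (r = 0.990), among 4952 genes of sufficient level. Those most like Nlrp3 were Nfkbiz (r = 0.996), Bcl2a1a (r = 0.995) and Ptgs2os2 (r = 0.995). Hspa5, Alkbh5 and Snx10 were most like Casp4 (r = 0.994, 0.994 and 0.993), and Slc11a1, Plec and Fosb most like Nlrc4 (r = 0.962, 0.959 and 0.949). For Pycard they were Foxk1, Git1 and Cpt1a (r = 0.942, 0.942 and 0.933), for Gsdmd Abca3, Eml3 and Snx14 (r = 0.982, 0.960 and 0.958), and for Casp1 Lsm14a, Tmem164 and Prpf6 (r = 0.876, 0.875 and 0.862). Aim2 had the lowest values, with Mcfd2 at r = 0.758, Fam102a at r = 0.756 and Sh3bp2 at r = 0.733. In the 15 tissue libraries Irgm1 was most like Mefv (r = 0.920), Acod1 most like Nlrp3 (r = 0.975) and Entpd1 most like Casp4 (r = 0.972). The libraries of a set share treatment and genotype groups, so these values are descriptions.

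Before the knockouts are compared, the targeted genes serve as a check of the labels. Counts over a whole gene do not show whether its protein is lost. With DMSO, Junb read 499 ± 18 CPM (SD, n = 2) against 899.7 ± 69 CPM (SD, n = 2) in the wild type, Relb 67.9 ± 0.574 CPM (SD, n = 2) against 169.9 ± 2.55 CPM (SD, n = 2), and Irf5 81.4 ± 0.519 CPM (SD, n = 2) against 98.5 ± 3.97 CPM (SD, n = 2). Cebpb read 524 ± 18.9 CPM (SD, n = 2) against 507 ± 40.7 CPM (SD, n = 2), Klf6 852 ± 0.661 CPM (SD, n = 2) against 630.0 ± 11.5 CPM (SD, n = 2), and Runx1 154 ± 2.65 CPM (SD, n = 2) against 60.4 ± 1.56 CPM (SD, n = 2). The last 3 were not lower than in the wild type, so RNA levels do not check these labels and the groups are called here by them.

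With DMSO, 5 of 8 members were called in cells labelled CEBPB-/- (3 higher, 2 lower; 70.5% of all genes called) and 6 in cells labelled JUNB-/- (2 higher, 4 lower; 76.4%). All 8 were called in cells labelled IRF5-/- (1 higher, 7 lower; 64.6% of genes called and 29.6% lower), and 7 in cells labelled RELB-/- (1 higher, 6 lower; 59.4% called and 27.3% lower). In cells labelled RUNX1-/- 7 were called (1 higher, 6 lower; 75.3% called and 37.1% lower), and in cells labelled KLF6-/- all 8 (3 higher, 5 lower; 66.2%). The members' median change was 0.01, -0.09, -0.45, -0.47, -0.49 and -0.09 in that order, beside -0.05, -0.12, 0.04, 0.04, 0.01 and -0.04 over all tested genes. CPM of the shared wild-type libraries differ between the set 2 table and that of RUNX1-/- and KLF6-/-, which were scaled separately. Total-count scaling moves the median gene by -0.35, -0.55, -0.12, -0.02, 0.36 and -0.14.

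Mefv was lower in 5 of the 6 knockouts. In cells labelled RUNX1-/- it read 1.96 and 2.1 CPM against 29.8 and 30.6 in the wild type, 14.8-fold lower (log2 change -3.89, SE 0.11, adjusted p = 1.65e-26), and in cells labelled KLF6-/- 10.5 and 9.0 CPM (log2 change -1.63, SE 0.09, adjusted p = 7.86e-18). It read 5.17 and 4.93 CPM in cells labelled JUNB-/- against 16.6 and 15.4 (log2 change -1.66, SE 0.10, adjusted p = 4.81e-23). In set 2, where the wild type held 20.1 and 20.7 CPM, it read 8.67 and 9.16 CPM in cells labelled IRF5-/- (log2 change -1.19, SE 0.07, adjusted p = 1.26e-26) and 15.2 and 13.7 CPM in cells labelled RELB-/- (log2 change -0.50, SE 0.06, adjusted p = 2.46e-11). In cells labelled CEBPB-/- it read 15 and 17.4 CPM and the change of 0.02 (SE 0.07, adjusted p = 0.851) did not pass; with total-count scaling it was -0.33.

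Nlrp3 also fell furthest in cells labelled RUNX1-/-, to 101 and 98.6 CPM from 736 and 745 (7.41-fold; log2 change -2.89, SE 0.02, adjusted p = 7.96e-42). It fell to 209 and 215 CPM in cells labelled RELB-/- and to 310.3 and 311 CPM in cells labelled IRF5-/-, from 496 and 503 (log2 change -1.24, SE 0.02, adjusted p = 1.24e-61; log2 change -0.68, SE 0.02, adjusted p = 3.77e-45). In cells labelled JUNB-/- it stood at 151 and 156 CPM against 281 and 294 (log2 change -0.90, SE 0.03, adjusted p = 3.66e-31). The changes were -0.06 in cells labelled CEBPB-/- (adjusted p = 0.132) and -0.06 in cells labelled KLF6-/- (adjusted p = 0.021). The KLF6-/- call was lost without either KLF6-/- library (adjusted p = 0.109 and 0.0528) and without wild-type library 2 (adjusted p = 0.15), and also with RLE scaling (adjusted p = 0.169) and DESeq2 (adjusted p = 0.268).

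Nlrc4 divided the knockouts. It stood at 0.707 and 0.684 CPM in cells labelled CEBPB-/- and 0.604 and 0.742 CPM in cells labelled JUNB-/-, against 7.89 and 8.3 in the wild type (11.6-fold and 12-fold lower; log2 change -3.53, SE 0.18, adjusted p = 3.58e-25; log2 change -3.58, SE 0.18, adjusted p = 2.44e-25). It stood at 0.481 and 0.696 CPM in cells labelled IRF5-/- and 1.26 and 1.08 CPM in cells labelled RELB-/-, against 6.5 and 6.02 (log2 change -3.39, SE 0.18, adjusted p = 8.67e-28; log2 change -2.41, SE 0.15, adjusted p = 7.73e-24). In cells labelled RUNX1-/- it stood at 9.55 and 7.91 CPM against 9.65 and 8.91, a change of -0.09 (SE 0.11, adjusted p = 0.454) that total-count scaling turns to 0.27, and in cells labelled KLF6-/- at 12.8 and 12.5 CPM (log2 change 0.45, SE 0.11, adjusted p = 0.000467).

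Markers of eosinophils and mast cells moved in the same libraries: their 6 markers summed to 1637 to 1641 CPM in wild-type set 1 with DMSO, 514 to 536 CPM in cells labelled CEBPB-/- and 221 to 225 CPM in cells labelled JUNB-/-. They summed to 3477 to 3543 CPM in wild-type set 2, 651 to 659 CPM in cells labelled IRF5-/- and 427 to 434 CPM in cells labelled RELB-/-. In the table with the later knockouts they summed to 5146 to 5257 CPM in the wild type, 768 to 785 CPM in cells labelled RUNX1-/- and 621 to 633 CPM in cells labelled KLF6-/-. Fcer1a, a chain of the receptor for IgE on mast cells, was at 0 in the 6 knockouts and had counts in the wild types. In the sorted tissue cells the 6 markers summed to at most 6.22 CPM. Nlrc4 was called lower in cells labelled CEBPB-/-, JUNB-/-, IRF5-/- and RELB-/-. It was not in those labelled RUNX1-/- and KLF6-/-, where other marker lists, given next, moved as well. With DMSO, dendritic cell markers summed to 71.5 to 71.9 CPM in wild-type set 1, 58.9 to 59.9 in CEBPB-/- and 2.82 to 2.92 in JUNB-/-, to 64.7 to 65.9 CPM in wild-type set 2, 20.2 to 20.4 in IRF5-/- and 7.99 to 8.72 in RELB-/-, and in the later table to 96 to 97.6 CPM in the wild type, 324.6 to 325.2 in RUNX1-/- and 22.5 in KLF6-/-. The 10 neutrophil markers summed to 25941 to 27579 CPM in wild-type set 1, 56449 to 57765 in CEBPB-/- and 73756 to 80697 in JUNB-/-, and to 47386 to 49481 CPM in wild-type set 2, 61488 to 63558 in IRF5-/- and 51509 to 51863 in RELB-/-. Monocyte and macrophage markers summed to 1391 to 1568 CPM over the set 1 groups with DMSO, and to 1258 to 1265 CPM in wild-type set 2, 813 to 823 in IRF5-/- and 1087 to 1093 in RELB-/-. In cells labelled KLF6-/- neutrophil markers summed to 84108 to 88440 CPM and monocyte and macrophage markers to 1181 to 1192 CPM. Fibroblast and endothelium markers summed to 30.9 to 32 CPM in the wild type of the later table and 225 to 226 CPM in RUNX1-/-, and to 23.3 to 23.6 CPM in wild-type set 1, 35.9 to 36.7 in CEBPB-/- and 71.2 to 72.4 in JUNB-/-. Of these 6 markers, Col1a2, Col3a1 and Dcn were at 0 in all of these groups. Cdh5 was at 0 in all but the wild type of the later table. The sums in the knockouts therefore come from 2 markers and do not show these cell types. In cells labelled RUNX1-/- the 10 neutrophil markers summed to 19360 to 19662 CPM against 70128 to 73416 CPM, and monocyte and macrophage markers to 2438 to 2445 CPM against 1862 to 1876 CPM. The part of these cell types in the members' changes was not tested.

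Aim2 read 109 and 109 CPM in cells labelled RUNX1-/- against 182 and 177 (log2 change -0.71, SE 0.03, adjusted p = 3.74e-21), its largest change with DMSO. It was lower by less in cells labelled IRF5-/- (-0.18), KLF6-/- (-0.13) and RELB-/- (-0.10, a call lost without RELB-/- library 1, adjusted p = 0.0785). In cells labelled CEBPB-/- (change 0.01, adjusted p = 0.916; -0.35 with total-count scaling) and JUNB-/- (-0.03, adjusted p = 0.53) it was not called.

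Pycard was the member that rose in cells labelled RUNX1-/-, to 257 and 254 CPM from 109 and 110.0 (2.33-fold; log2 change 1.22, SE 0.03, adjusted p = 5.37e-29). It fell in cells labelled CEBPB-/-, to 43.1 and 41.6 CPM from 64.8 and 61.6 (log2 change -0.58, SE 0.05, adjusted p = 1.39e-14), and in cells labelled RELB-/- to 57.9 and 51.5 CPM from 73.6 and 74.3 (log2 change -0.43, SE 0.04, adjusted p = 1.49e-14). Smaller changes were called in cells labelled IRF5-/- (-0.22), KLF6-/- (0.15, 0.00 with total-count scaling) and JUNB-/- (-0.14, a call lost without JUNB-/- library 2 or wild-type library 1, adjusted p = 0.352 and 0.204).

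Casp4 fell 2.2-fold in cells labelled IRF5-/-, to 46.2 and 44.6 CPM from 100.0 and 99.5 (log2 change -1.14, SE 0.03, adjusted p = 2.76e-45), and less in cells labelled KLF6-/- (-0.67), RELB-/- (-0.58) and RUNX1-/- (-0.35, 0.01 with total-count scaling). In cells labelled CEBPB-/- it was higher (0.23; -0.13 with total-count scaling), and in cells labelled JUNB-/- it read 96.6 and 89.6 CPM against 94.4 and 92.6 (change -0.01, adjusted p = 0.913). Casp1 was higher in set 1, at 66.7 and 69.8 CPM in cells labelled CEBPB-/- (log2 change 0.44, SE 0.05, adjusted p = 1.06e-11; not called with total-count scaling, 0.09) and 73.1 and 70.0 CPM in cells labelled JUNB-/- against 49 and 51.7 (log2 change 0.51, SE 0.05, adjusted p = 5.96e-14; -0.04 with total-count scaling). It was lower in cells labelled RUNX1-/-, at 43.1 and 41.8 CPM against 65.1 and 66 (log2 change -0.63, SE 0.04, adjusted p = 1.12e-14), and in cells labelled KLF6-/- (-0.15, a call lost with DESeq2, adjusted p = 0.0974). The call in cells labelled IRF5-/- (-0.11, adjusted p = 0.0396) was lost without IRF5-/- library 2 and without either wild-type library (adjusted p = 0.236, 0.0577 and 0.149), and in cells labelled RELB-/- Casp1 read 0.01 (adjusted p = 0.863).

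Gsdmd was higher in cells labelled CEBPB-/-, at 193 and 196 CPM against 125 and 133 (log2 change 0.59, SE 0.04, adjusted p = 2.43e-20), in cells labelled KLF6-/-, at 288 and 298 CPM against 211 and 207 (log2 change 0.49, SE 0.03, adjusted p = 5.17e-18), and in cells labelled IRF5-/-, at 184 and 187 CPM against 142 and 140.0 (log2 change 0.40, SE 0.03, adjusted p = 1.17e-22). It was higher by less in cells labelled RELB-/- (0.16) and JUNB-/- (0.15; -0.39 with total-count scaling). In cells labelled RUNX1-/- it was lower (-0.09, adjusted p = 0.00265; 0.27 with total-count scaling), a call lost without RUNX1-/- library 1 (adjusted p = 0.052).

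**Figure D4:**
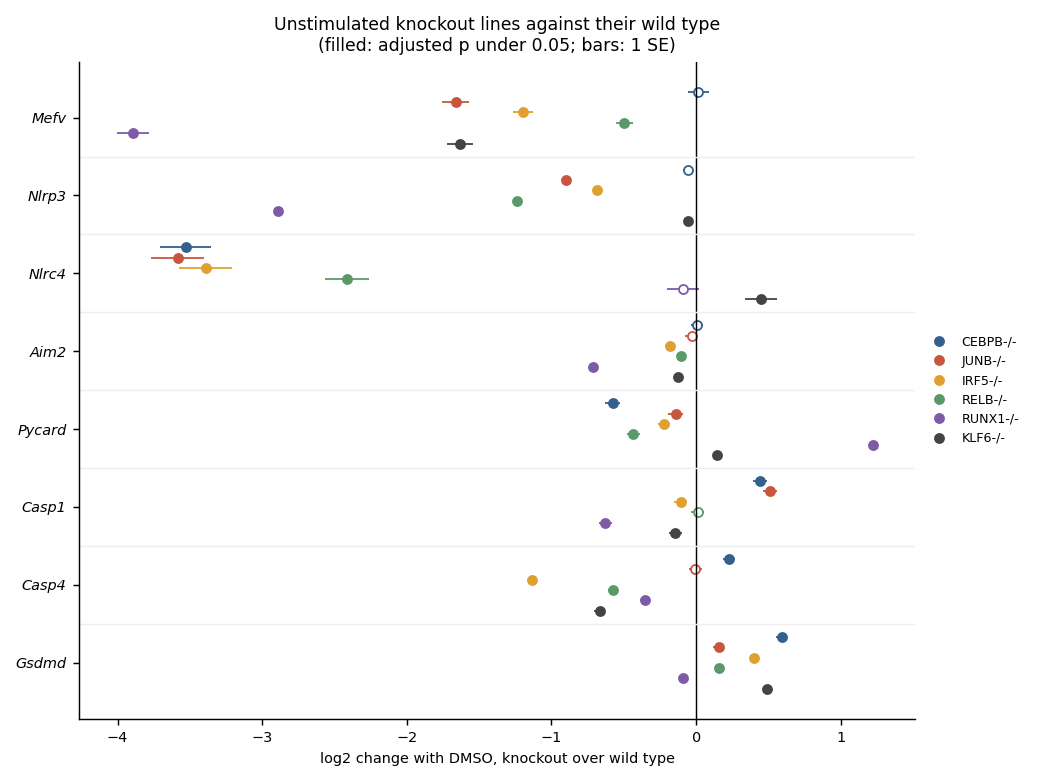
Points give the log2 change of each member in each knockout against its wild type with DMSO, bars 1 standard error and filled points an adjusted p under 0.05 by edgeR. The points of Nlrc4 lie at -3.58 to -2.41 in cells labelled CEBPB-/-, JUNB-/-, IRF5-/- and RELB-/-, and those of Mefv and Nlrp3 at -3.89 and -2.89 in cells labelled RUNX1-/-, where Pycard is at 1.22.

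The pathway lists went in both directions in the same comparisons. In cells labelled JUNB-/- all 3 substrates were lower, with Il1b at -3.68 and Il1a at -6.40 log2 units, and all 7 tested guanylate-binding proteins were lower. In cells labelled RUNX1-/- all 3 substrates were lower, with Il1b at -4.16, as were 8 of 13 regulators and 11 of 16 priming receptors, among them Tlr2 (-2.04) and Nod1 (-2.46), a peptidoglycan sensor, while 7 of 11 other sensors and 6 of 9 caspases, pore proteins and repair genes were higher. Of the 13 regulators, 8 were higher in cells labelled JUNB-/-, 9 in IRF5-/- and 8 in RELB-/-, and of the 16 priming receptors 10 were higher and 1 lower in CEBPB-/-. In cells labelled RELB-/- all 3 substrates and all 5 tested guanylate-binding proteins were lower, with Il1b at -1.71 and Gbp2 at -1.76. In cells labelled KLF6-/- all 5 tested guanylate-binding proteins were lower (Gbp2 -2.67). In cells labelled IRF5-/- 2 of 3 substrates were lower (Il1b -1.81, Il1a -3.00) and 1 higher, as in KLF6-/-, and in cells labelled CEBPB-/- Il1a was lower (-3.59) and Il18 higher (0.63). Serpinb1a, an inhibitor of neutrophil proteases, was lower in cells labelled RUNX1-/- (-4.45) and higher in those labelled JUNB-/- (3.29). Over all tested genes 33.6% were called higher and 36.9% lower in CEBPB-/-, 35.4% and 41.1% in JUNB-/-, 35% and 29.6% in IRF5-/-, 32.1% and 27.3% in RELB-/-, 38.2% and 37.1% in RUNX1-/-, and 31.2% and 35% in KLF6-/- cells.

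Zymosan also moved the members in the knockouts. Called were 5 higher and 2 lower in cells labelled CEBPB-/- (73.5% of genes called), 5 and 3 in JUNB-/- (73.2%), 5 and 3 in IRF5-/- (69.8%) and 5 and 2 in RELB-/- (72.7%). Mefv, Nlrp3, Nlrc4 and Casp4 rose and Pycard and Gsdmd fell in all 4. Total-count scaling moves the median gene by -0.67 to -0.94 here and turns the changes of Casp1 in CEBPB-/- (0.04 to -0.89), IRF5-/- (0.53 to -0.41) and RELB-/- (0.54 to -0.35) and that of Aim2 in CEBPB-/- (0.62 to -0.31).

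At Mefv, Nlrp3 and Nlrc4 the knockouts lay closer to the wild type with zymosan than with DMSO, except at Mefv and Nlrp3 in cells labelled CEBPB-/-. Mefv reached 207 and 197 CPM in cells labelled JUNB-/- and 248 and 268 CPM in cells labelled CEBPB-/- against 150.1 and 160.3 in the wild type (log2 change 0.38, SE 0.04, adjusted p = 7.21e-11, -0.15 with total-count scaling; log2 change 0.73, SE 0.05, adjusted p = 2.62e-21). In set 2 it reached 166 and 169.8 CPM in cells labelled IRF5-/- and 139.9 and 139.9 CPM in cells labelled RELB-/- against 144 and 139 (changes 0.25, which is 0.07 and not called with total-count scaling, adjusted p = 0.0968, and -0.01, adjusted p = 0.802). Nlrc4 reached 26.5 and 24.8 CPM in cells labelled IRF5-/- and 26.7 and 27 CPM in cells labelled RELB-/- against 21.8 and 24.8 (changes 0.14, adjusted p = 0.158, and 0.20, adjusted p = 0.0303). Without wild-type zymosan library 2 the first was called (0.27, adjusted p = 0.0303), and without wild-type zymosan library 1 the second was not (0.16, adjusted p = 0.178). It reached 19.9 and 21.8 CPM in cells labelled JUNB-/- against 25.5 and 26.4 (log2 change -0.32, SE 0.09, adjusted p = 0.000947). Cells labelled CEBPB-/- stayed lower, at 8.94 and 6.95 CPM (3.24-fold; log2 change -1.70, SE 0.11, adjusted p = 4.03e-20).

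In all, 8 members were called between cells labelled CEBPB-/- and the wild type with zymosan (6 higher, 2 lower; 67.9% of genes called) and 8 for JUNB-/- (6 higher, 2 lower; 76.5%). For IRF5-/- 6 were called (4 higher, 2 lower; 60.4%) and for RELB-/- 6 (4 higher, 2 lower; 56%). Nlrp3 stood at 3965 and 4008 CPM in cells labelled CEBPB-/- and 2599.6 and 2568 CPM in cells labelled JUNB-/- against 3208 and 3265 (changes 0.30, -0.28 with total-count scaling, and -0.32). In set 2 it stood at 3785 and 3717 CPM in cells labelled IRF5-/- and 2834 and 2807 CPM in cells labelled RELB-/- against 3143 and 3118 (changes 0.26 and -0.15).

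Casp4 with zymosan was higher in set 1, at 666 and 705 CPM in cells labelled CEBPB-/- and 739 and 699 CPM in cells labelled JUNB-/- against 435 and 408 (log2 change 0.70, SE 0.04, adjusted p = 5.7e-24; log2 change 0.77, SE 0.04, adjusted p = 2.38e-26). In set 2 the changes were -0.04 in IRF5-/- (adjusted p = 0.157) and 0.01 in RELB-/- (adjusted p = 0.844), at 504 and 522 and 525.6 and 532 CPM against 530.1 and 523. Pycard was higher in 1 knockout and lower in 3 with zymosan. It stood at 44.5 and 46.2 CPM in cells labelled JUNB-/- against 25.1 and 24.2 (log2 change 0.88, SE 0.07, adjusted p = 2.36e-18) and at 13 and 13.2 CPM in cells labelled RELB-/- against 24.6 and 23.2 (log2 change -0.86, SE 0.08, adjusted p = 1.63e-15), and it was lower in CEBPB-/- (-0.45, adjusted p = 3.94e-06) and IRF5-/- (-0.44, adjusted p = 2.41e-06). Gsdmd was called higher in all 4 knockouts with zymosan, by 0.79 in CEBPB-/-, 0.27 in JUNB-/- (-0.25 with total-count scaling), 0.57 in IRF5-/- and 0.22 in RELB-/-. Casp1 was called higher in all 4 as well, by 0.71, 0.42 (-0.11 with total-count scaling), 0.36 and 0.49. Aim2 read 141 and 135 CPM in cells labelled JUNB-/- and 114 and 121 CPM in cells labelled CEBPB-/- against 82.1 and 80.3 (changes 0.77 and 0.53, the second -0.05 with total-count scaling). In set 2 it was lower in cells labelled IRF5-/- (log2 change -0.31, SE 0.04, adjusted p = 1.26e-09) and higher in those labelled RELB-/- (log2 change 0.18, SE 0.04, adjusted p = 2.8e-05).

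The interaction term tests whether zymosan changed a member by another factor in a knockout than in its wild type. It was higher for 7 of 8 members in cells labelled CEBPB-/- (24.4% of genes higher), 6 in JUNB-/- (28.1%), 6 in IRF5-/- (16.5%) and 6 in RELB-/- (16.1%), and lower for 1 in RELB-/- (15.3%). The DMSO and the zymosan levels both enter it, so the term alone does not tell which of them differs. Nlrc4 had the largest terms: 3.53 in IRF5-/- (SE 0.21, adjusted p = 4.31e-25), 3.27 in JUNB-/- (SE 0.21, adjusted p = 8.05e-20), 2.62 in RELB-/- (SE 0.18, adjusted p = 7.3e-22) and 1.83 in CEBPB-/- (SE 0.25, adjusted p = 6.29e-09). For Mefv they were 2.04 in JUNB-/-, 1.45 in IRF5-/-, 0.72 in CEBPB-/- and 0.48 in RELB-/-. For Nlrp3 they were 1.09 in RELB-/-, 0.95 in IRF5-/-, 0.58 in JUNB-/- and 0.36 in CEBPB-/-, and for Casp4 1.10, 0.78, 0.58 and 0.48 in IRF5-/-, JUNB-/-, RELB-/- and CEBPB-/-.

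Pycard had a higher term in cells labelled JUNB-/- (log2 change 1.02, SE 0.08, adjusted p = 4e-16), where its change with zymosan was -0.33 in place of -1.36, and a lower one in cells labelled RELB-/- (log2 change -0.43, SE 0.09, adjusted p = 0.000105), where the change was -2.06 in place of -1.63. In cells labelled IRF5-/- its term was -0.22 (adjusted p = 0.0576; with the replicate block, adjusted p = 0.0433). Among the smaller terms, those of Casp1 (0.27) and Gsdmd (0.20) in cells labelled CEBPB-/- lost their call when any of several libraries was left out. Without CEBPB-/- DMSO library 1 or 2 or wild-type DMSO library 2 the Casp1 term was 0.12, 0.18 and 0.12 (adjusted p = 0.287, 0.0955 and 0.267), and that of Gsdmd 0.07, 0.09 and 0.04 (adjusted p = 0.45, 0.357 and 0.636). With total-count scaling the Casp1 term was 0.04 (adjusted p = 0.728). The Gsdmd term was also not called without CEBPB-/- zymosan library 1 (0.16, adjusted p = 0.0684) or wild-type DMSO library 1 (0.12, adjusted p = 0.109), and it was -0.03 with total-count scaling.

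**Figure D5:**
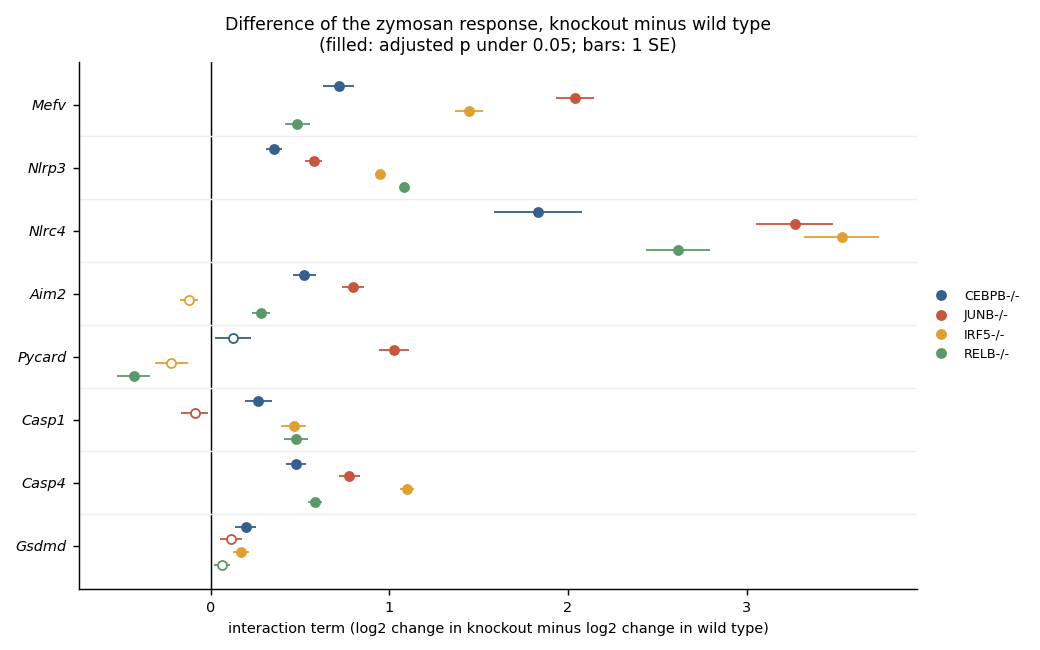
Points give the interaction term of each member, the log2 change with zymosan in a knockout minus that in its wild type, with bars of 1 standard error and filled points for an adjusted p under 0.05 by edgeR. The terms of Nlrc4 lie at 1.83 to 3.53, and the one filled point below 0 is Pycard in cells labelled RELB-/-.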

How the data were processed

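RNA was counted per gene as whole read pairs, and the deposited counts were used as they stand. Per the file headers the authors used featureCounts, version 1.5.0-p2 without strand for the tissues and 1.6.3 reverse stranded for the cultures, at a mapping quality of 255. The submitters' processing notes name STAR, cutadapt, Bowtie2, MACS2, deepTools, DESeq2 and the builds mm10 and GRCm38. The authors deposited merged ATAC-seq sites and lists of sites with −log10 of the adjusted p, a score per site, and other columns such as names. In set 1 18 count columns, of which 10 were sums of 2 others, matched no single sample and were not used.

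Genes were tested with edgeR 4.0.16 in R 4.3.3 (quasi-likelihood, TMM scaling, filterByExpr with a minimum of 10 counts), 1 fit per table (12330 tissue genes tested, 12899 for set 1, 13779 for set 2, 13608 for the RUNX1-/- and KLF6-/- table), with Benjamini-Hochberg adjustment per comparison. Interactions were contrasts of the same fits. DESeq2 1.42.0, limma voom 3.58.1, RLE and total-count scaling, no filter, a replicate block, leaving out each library and, for sites, other distances and thresholds were the alternatives, with the RefSeq gene start added after seeing the data. The fits were tested on simulated data with the fitted spread. The tissue fit (exudate against marrow) found 0% of genes changed 4-fold and 16% of those changed 64-fold. It also made 2 false calls among 11377 genes run, and the culture fits made 5 to 14. The culture fits found 75% to 81% of genes changed 1.5-fold and 92% to 94% of those changed 2-fold. A gene not called between tissues is therefore not shown to be equal there. Intervals and floors cover counting error only.

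All 8 members were named. Other genes of the lists were named by the largest called change (up to 3 per list and comparison), and similar genes by the 3 highest correlations. The members and lists were chosen with earlier results of these data known. Gene symbols came from a table that matched 50376 IDs (99.6%).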

Additional observations from a re-analysis of the deposited data

Results flagged for a closer look

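In groups of 4 to 10 libraries, 1 library stood far from the others in 2 of the 16 member and tissue groups looked at, both times exudate library 1: Aim2 read 40.9 CPM there and Nlrc4 0.0989 CPM. Chance flags about 1 in 20 such groups, and the Nlrc4 value stands beside 0 counts in the other 4 exudate libraries, so any count there would stand apart.

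The zymosan response differed between a knockout and its wild type in 26 of 32 interaction terms (edgeR, adjusted over all genes). Over all genes 24.4% of terms were higher and 16.7% lower for CEBPB-/-, 28.1% and 15.4% for JUNB-/-, 16.5% and 16.8% for IRF5-/-, and 16.1% and 15.3% for RELB-/-. In cells labelled CEBPB-/- the terms were 1.83 for Nlrc4, 0.72 for Mefv, 0.52 for Aim2, 0.48 for Casp4, 0.36 for Nlrp3, 0.27 for Casp1 and 0.20 for Gsdmd. With total-count scaling the Gsdmd term was -0.03, and the Casp1 term was 0.04 and not called (adjusted p = 0.728). In cells labelled JUNB-/- they were 3.27 for Nlrc4, 2.04 for Mefv, 1.02 for Pycard, 0.80 for Aim2, 0.78 for Casp4 and 0.58 for Nlrp3. In cells labelled IRF5-/- they were 3.53 for Nlrc4, 1.45 for Mefv, 1.10 for Casp4, 0.95 for Nlrp3, 0.46 for Casp1 and 0.17 for Gsdmd. In cells labelled RELB-/- they were 2.62 for Nlrc4, 1.09 for Nlrp3, 0.58 for Casp4, 0.48 for Mefv, 0.48 for Casp1, 0.28 for Aim2 and -0.43 for Pycard.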

How the results depend on the processing

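Total-count scaling changed the direction of 20 of the members' values. With zymosan against DMSO it gave -0.61 for Aim2 in wild-type set 1 and -0.31 in CEBPB-/-, and for Casp1 -0.81 in wild-type set 2, -0.89 in CEBPB-/-, -0.41 in IRF5-/- and -0.35 in RELB-/-. With DMSO it gave -0.33 for Mefv, -0.35 for Aim2 and -0.13 for Casp4 in CEBPB-/-, -0.041 for Casp1 and -0.39 for Gsdmd in JUNB-/-, and 0.27 for Nlrc4, 0.012 for Casp4 and 0.27 for Gsdmd in RUNX1-/-. With zymosan against the wild type it gave -0.28 for Nlrp3 and -0.050 for Aim2 in CEBPB-/-, and -0.15 for Mefv, -0.11 for Casp1 and -0.25 for Gsdmd in JUNB-/-. The CEBPB-/- interaction of Gsdmd became -0.033. Over all genes the share of calls that were higher went from 47.3% to 22.6% (wild-type set 1) and from 53.1% to 16.3% (wild-type set 2) with zymosan, from 47.8% to 23.1% in CEBPB-/-, 49.8% to 27.8% in JUNB-/-, 49.2% to 17.6% in IRF5-/- and 48.4% to 18.1% in RELB-/-. Against the wild type with DMSO it went from 47.6% to 23.3% (CEBPB-/-), 46.3% to 20.4% (JUNB-/-), 54.2% to 42.9% (IRF5-/-), 50.8% to 71.6% (RUNX1-/-) and 47.1% to 33.5% (KLF6-/-), and with zymosan from 51.5% to 18.7% (CEBPB-/-), 51.1% to 27.9% (JUNB-/-) and 49% to 32.6% (IRF5-/-). For the interactions it went from 59.4% to 34.3% (CEBPB-/-) and 49.6% to 39.1% (IRF5-/-).

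At a 2-fold threshold fewer members were called. With DMSO the counts were 1 in CEBPB-/- (24.9% of all tested genes), 2 in JUNB-/- (35.4%), 3 in IRF5-/- (19.6%), 2 in RELB-/- (15.2%), 3 in RUNX1-/- (27.4%) and 1 in KLF6-/- (20.4%). With zymosan against the wild type they were 1 in CEBPB-/- (27.7%) and 0 in JUNB-/- (38.9%), IRF5-/- (20.5%) and RELB-/- (16.3%), for the interactions 1 in CEBPB-/- (11.2%), 3 in JUNB-/- (12.6%), 3 in IRF5-/- (7.73%) and 2 in RELB-/- (6.59%), and for zymosan against DMSO 4 in JUNB-/- (39.7%) and 5 in IRF5-/- (36.3%). Between tissues, DESeq2 called 2 members for blood against marrow (322 of all genes), 3 for exudate against marrow (1701), 2 for membrane against marrow (1705), 1 for membrane against blood (1282) and 1 for exudate against membrane (915). Without a filter, and with the tag and number of the column as blocking factor, 2 were called for exudate (266 and 290 of all genes) and 2 for membrane (140 and 273) against marrow, and among libraries of tag 100 alone 2 for exudate against marrow (237). The compared groups alone gave 0 for blood and 0 for exudate against marrow, and 0 of all genes. Leaving out 1 library at a time gave 0 to 1 for blood, 0 to 2 for exudate and 0 to 1 for membrane against marrow. Of the counts under the other settings, 196 stayed within 1.5 times and 28 did not, 16 of these at the 2-fold threshold. When 1 library was left out, 131 of 141 stayed within it. The causes were not tested.

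The replicate numbers did not pair the culture libraries: same-numbered libraries deviated from their group means with r of -0.0371 to 0.0938 (set 1), -0.028 to 0.0414 (set 2) and -0.0384 to 0.0338 (RUNX1-/-, KLF6-/- and their wild type). Some tissue columns share a tag and number between tissues, and the main fit did not pair them. Such tissue libraries deviated with r of -0.0423 to 0.1. With the replicate block all 20 culture counts were as without it (7 members for zymosan in wild-type set 1, 7 for the RELB-/- interaction) except that of the IRF5-/- interaction, 7 in place of 6, where Pycard was called at -0.22 (adjusted p = 0.0433). For sites, members with a listed site numbered 6 within 10 kb (21.8% of genes), 8 within 100 kb (65.9%) and 6 at −log10 of at least 2 (43.9%). The tissue fit had a wide spread between replicates, and 2 libraries per culture group limit every estimate.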
